A study of Mus musculus with 18 samples.

Results

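Fibroblast, myofibroblast and pericyte genes were examined in bulk RNA of mouse melanomas. The set held 10 genes that were listed by name as markers of these cells, namely Pdgfra, Pdgfrb, Thy1, Fap, Acta2, Tagln, Postn, Dcn, Lum and Dpt, out of 41079 genes in the expression table. The tumors were grown from B16F10, a mouse melanoma cell line, placed under the skin of the flank of female C57BL/6 mice. From day 6 they received an injection into the tumor every 2 days, and they were collected 48 h after the last one. There were 6 groups with 3 tumors each, 18 in all. The first received phosphate-buffered saline (PBS), and the second received Free PS473, a pistol ribozyme (a small self-folding RNA that cuts RNA) directed against the mRNA of the immune checkpoint ligand PD-L1. The third, PS473@CPs, received the same ribozyme on cationic polymers. The others received a manganese-based metal-organic framework, either empty (NKMOF-101-[Mn]) or loaded with the inactive ribozyme mutant M5 (M5@NKMOF-101-[Mn]) or with the active ribozyme (PS473@NKMOF-101-[Mn]). The titles of the 3 tumors of the last group write NKMOF-102, whereas the treatment text names NKMOF-101 alone, and the spelling of the treatment text is used here. No source said which tumors came from which mice, so the p values measure the spread between these tumors.

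Fibroblasts build and remodel the collagenous matrix of connective tissue and of tumors, and pericytes wrap small blood vessels. Both respond to platelet-derived growth factors through the receptors Pdgfra and Pdgfrb, and both can take on a contractile state, called myofibroblast in fibroblasts, in which smooth muscle actin and its partner proteins are made. In a transplanted tumor such transcripts are used as markers of the stroma of the host. In bulk tissue, fewer cells of a type and less RNA per cell cannot be told apart.

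The values are FPKM, fragments per kilobase of transcript scaled to the assigned fragments of the tumor, which can be compared between genes because they are per length. The depth behind them, read from the steps between low values, was 17212000 to 28401000 assigned fragments per tumor. All 9 melanocyte and melanoma markers were above 0 in each tumor, with a summed level of 5931 to 9096 FPKM, so the labelled melanoma was present throughout. The tumors differed in skin. Across the 22 genes of a skin epithelium list (keratins and other epidermal genes), 8 tumors had a mean log2(FPKM + 1) of 0.301 to 0.341 and the other 10 had 0.893 to 5.28. Krt14, the keratin of the basal epidermis, was at 0 FPKM in PBS 1 and at 2058 FPKM in PBS 2. Each group held at least 1 tumor from either side of this gap, and values of the stromal genes are given below for both sides. No tumor repeated the values of another.

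Of the 10 genes, 9 were above 0 in all 18 tumors and Dpt was above 0 in 17. Mean levels over the 18 tumors ran from 0.382 FPKM (Fap) to 19.4 FPKM (Postn). Filtering at a mean of 1 FPKM left 12357 genes for the tests between groups, including 8 of the 10, while Pdgfra (mean 0.587 FPKM) and Fap fell below it. These genes varied widely between tumors: 94.4% of the genes tested had a smaller standard deviation of log2(FPKM + 1) than each of the 8, which had 0.65 or more against a median of 0.176 over all genes tested. Between 16.8% and 39.7% of that variance lay between groups (median 24.6%), close to the median of 23.3% over all genes tested. For all 10 genes, the widest ratio between tumors of 1 group exceeded the ratio of the highest to the lowest group mean, which was 1.84 to 9.4.

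Promoter sequence was examined for 4 of the 10 genes (Pdgfra, Acta2, Postn and Dpt), from RefSeq on genome build GRCm38.p6. The windows cover 250 bases before and 50 bases after an annotated start, and 3 of them are shown because they hold a short motif associated with muscle-type actin genes or with a fixed start of transcription. In the Acta2 window, at chr19:34255324-34255623 on the minus strand, the capitals mark 2 CArG-type boxes, the motif class that serum response factor is known to recognise, each with 1 central G or C in place of A or T. They lie at -84 to -75 and -34 to -25 from the start. Of the 32851 promoters searched on both strands, 9.98% held at least 1 CArG box with at most 1 such letter and 0.822% held 2 or more. In the Postn window, at chr3:54360857-54361156 on the plus strand, the capitals mark the letters TATAAA at -26 to -21. The Dpt window, at chr1:164796413-164796712 on the plus strand, holds the same letters at 12 to 17 after the start. TATAAA was searched on both strands and was found on either strand in 13.6% of the promoters. The share with a match on the strand of the gene, where the Postn and Dpt matches lie, was not counted. The RefSeq starts of Acta2, Postn and Dpt lie 217, 2 and 19 bases from the gene's start in GENCODE M21. A match is a run of letters and was not tested as a site.
Acta2: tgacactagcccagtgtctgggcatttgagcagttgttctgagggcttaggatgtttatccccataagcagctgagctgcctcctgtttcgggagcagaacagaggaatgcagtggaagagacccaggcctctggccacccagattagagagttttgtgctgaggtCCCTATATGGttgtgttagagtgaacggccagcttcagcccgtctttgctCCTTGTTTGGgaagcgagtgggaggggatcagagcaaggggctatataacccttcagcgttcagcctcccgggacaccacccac
Postn: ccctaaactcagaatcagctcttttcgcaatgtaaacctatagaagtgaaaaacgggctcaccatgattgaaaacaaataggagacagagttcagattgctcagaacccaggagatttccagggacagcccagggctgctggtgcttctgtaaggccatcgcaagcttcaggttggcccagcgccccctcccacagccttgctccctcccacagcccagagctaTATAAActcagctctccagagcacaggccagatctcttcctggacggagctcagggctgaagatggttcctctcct
Dpt: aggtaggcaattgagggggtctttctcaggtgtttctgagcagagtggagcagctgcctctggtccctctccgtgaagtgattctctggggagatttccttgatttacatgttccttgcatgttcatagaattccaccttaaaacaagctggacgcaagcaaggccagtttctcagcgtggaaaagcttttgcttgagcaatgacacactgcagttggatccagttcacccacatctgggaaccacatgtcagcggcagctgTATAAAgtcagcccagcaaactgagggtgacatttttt

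The 10 genes lie on 8 chromosomes in the GENCODE M21 annotation of GRCm38, with Dcn and Lum next to each other on chromosome 10 with 0 annotated genes between them. Tagln overlaps the coding gene Pcsk7 on the other strand, Pdgfra overlaps 3 small annotated genes and Dpt overlaps 1 antisense RNA. The library protocol describes no marking of strand, so fragments of Tagln and Pcsk7 may have been exchanged and the level of Tagln is uncertain to that extent.

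Both PDGF receptors were detected in all 18 tumors, with Pdgfrb above Pdgfra throughout. Pdgfrb, the PDGF receptor typical of pericytes and also present on fibroblasts, was at 2, 6.61 and 3.16 FPKM in PBS tumors 1 to 3 and at 2.05, 1.42 and 4.01 FPKM in Free PS473 tumors. It was at 1.65, 9.23 and 4.11 FPKM in PS473@CPs and at 8.08, 3.44 and 3.55 FPKM in NKMOF-101-[Mn]. The M5@NKMOF-101-[Mn] tumors had 1.39, 3.76 and 1.78 FPKM and the PS473@NKMOF-101-[Mn] tumors had 2.08, 3.81 and 1.41 FPKM. PS473@CPs 2 and NKMOF-101-[Mn] 1 stood above all other tumors, and every group overlapped every other. Group means ran from 5.02 FPKM in NKMOF-101-[Mn] (SD 2.64) through 5 in PS473@CPs (SD 3.87), 3.92 in PBS (SD 2.4), 2.49 in Free PS473 (SD 1.35) and 2.43 in PS473@NKMOF-101-[Mn] (SD 1.24) to 2.31 in M5@NKMOF-101-[Mn] (SD 1.27), n = 3 each.

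Pdgfra, the PDGF receptor typical of fibroblasts, was near the detection limit in several tumors. PBS tumors had 0.0331, 2.51 and 0.913 FPKM, a 75.8-fold range inside the control group. Free PS473 tumors had 0.173, 0.054 and 0.879 FPKM, and PS473@CPs tumors had 0.131, 1.51 and 0.435 FPKM. The framework groups had 2.03, 0.286 and 0.306 FPKM (NKMOF-101-[Mn]), 0.104, 0.185 and 0.175 FPKM (M5@NKMOF-101-[Mn]) and 0.117, 0.637 and 0.0753 FPKM (PS473@NKMOF-101-[Mn]). The 3 M5@NKMOF-101-[Mn] tumors lay closest together and below all 3 NKMOF-101-[Mn] tumors, a pair of groups not among the comparisons tested, and the other groups overlapped. How many of all genes tested are separated in that pair was not counted, so the separation is not read as a trait of Pdgfra. The lowest value, in PBS 1, rested on an estimated 8 fragments and the highest, in PBS 2, on 628. The ratio of Pdgfrb to Pdgfra was above 1 in all 18 tumors, from 2.63 in PBS 2 to 60.6 in PBS 1 (median 11.7).

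Surface proteins of fibroblasts were read from Thy1 and Fap. Thy1, a glycoprotein anchored in the membrane of fibroblasts and also of T cells and neurons, had 4.85, 18.4 and 13.7 FPKM in PBS tumors. It had 4.99, 2.94 and 21.9 FPKM in Free PS473 and 5.24, 47.5 and 13.9 FPKM in PS473@CPs. NKMOF-101-[Mn] tumors had 27.6, 13 and 11.5 FPKM, M5@NKMOF-101-[Mn] tumors 4.49, 10.8 and 7.03 FPKM, and PS473@NKMOF-101-[Mn] tumors 5.8, 14.2 and 4.5 FPKM. All groups overlapped except that each tumor with the empty framework lay above each M5@NKMOF-101-[Mn] tumor. That pair was not among the comparisons tested, and its share of separated genes over all genes tested was not counted. In Free PS473 and in PS473@CPs, 1 tumor was far above the other 2.

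Fap, a membrane protease of activated fibroblasts, was the least abundant and the least variable of the 10 genes. Its levels ran from 0.187 FPKM in NKMOF-101-[Mn] 3 to 0.662 FPKM in NKMOF-101-[Mn] 1, a 3.53-fold range that 1 group spanned. Group means were 0.335 FPKM in PBS (SD 0.129), 0.388 in Free PS473 (SD 0.208), 0.501 in PS473@CPs (SD 0.136), 0.469 in NKMOF-101-[Mn] (SD 0.249), 0.272 in M5@NKMOF-101-[Mn] (SD 0.00649) and 0.325 in PS473@NKMOF-101-[Mn] (SD 0.102), n = 3 each. M5@NKMOF-101-[Mn] lay below all PS473@CPs tumors, a pair not among those tested, and the other groups overlapped. The share of separated genes in that pair over all genes tested was not counted. Each value rested on an estimated 9 to 44 fragments, which limits its precision.

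Among the contractile genes, Acta2, which encodes smooth muscle alpha-actin, had the largest share of its variance between groups (39.7%) and 1 extreme tumor. PBS tumors had 11.1, 12.9 and 10.5 FPKM, the tightest of the 6 groups relative to its mean. Free PS473 tumors had 7.4, 4.9 and 22.3 FPKM and PS473@CPs tumors had 6.68, 74.5 and 13.3 FPKM. NKMOF-101-[Mn] tumors, at 26.6, 18.8 and 15.7 FPKM, were all above the PBS tumors. M5@NKMOF-101-[Mn] tumors, at 6.78, 9.06 and 3.37 FPKM, and PS473@NKMOF-101-[Mn] tumors, at 7.77, 10.4 and 6.44 FPKM, were all below them. Such separation from PBS, in either direction, was found in 6.02% of all genes tested for the empty framework. It was found in 8.11% for M5@NKMOF-101-[Mn] and in 4.66% for PS473@NKMOF-101-[Mn]. How many genes separate the empty framework from the one with the inactive ribozyme was not counted, and that pair was not tested. The 74.5 FPKM of PS473@CPs 2 was 22.1-fold the lowest value. The mean of PS473@CPs (31.5 FPKM, SD 37.4) rested on that tumor.

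Tagln encodes transgelin, an actin-binding protein of smooth muscle and myofibroblasts, and followed nearly the same order of groups at lower levels. PBS tumors had 5.56, 7.97 and 4.77 FPKM, Free PS473 tumors 2.18, 1.74 and 14.3 FPKM, and PS473@CPs tumors 2.85, 18.3 and 5.16 FPKM. NKMOF-101-[Mn] tumors had 12, 7.09 and 4.52 FPKM. M5@NKMOF-101-[Mn] tumors, at 2.58, 2.99 and 1.59 FPKM, and PS473@NKMOF-101-[Mn] tumors, at 2.35, 3.22 and 2.77 FPKM, overlapped each other and lay below all PBS and all NKMOF-101-[Mn] tumors. Against PBS, 8.11% of all genes tested were separated in M5@NKMOF-101-[Mn] and 4.66% in PS473@NKMOF-101-[Mn]. Between the empty framework and PS473@NKMOF-101-[Mn] the share was 7.91%. The framework with the inactive ribozyme was not tested against the empty one, and the share of genes separated there was not counted. The ratio of Acta2 to Tagln stayed between 1.56 and 4.08 in the 18 tumors (median 2.6).

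Postn, Dcn, Lum and Dpt encode secreted matrix proteins. Postn encodes periostin, a matricellular protein laid down by activated fibroblasts, and was the most abundant of the 10 genes on average. PBS tumors had 2.29, 45.3 and 27.6 FPKM, Free PS473 tumors 4.07, 1.99 and 45.4 FPKM, and PS473@CPs tumors 6.63, 58.4 and 19.3 FPKM. NKMOF-101-[Mn] tumors had 72.5, 14.6 and 8.92 FPKM, M5@NKMOF-101-[Mn] tumors 3.53, 3.72 and 9.3 FPKM, and PS473@NKMOF-101-[Mn] tumors 4.02, 14.3 and 6.62 FPKM. The 5 highest tumors, at 27.6 FPKM or more, came from 4 groups, and all groups overlapped in range. The series spanned 36.5-fold and Free PS473 alone 22.8-fold.

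Dcn, encoding decorin, a small leucine-rich proteoglycan that binds collagen fibrils, had the widest range. PBS tumors had 0.166, 25.1 and 15.7 FPKM, a 151-fold range among the controls. Free PS473 tumors had 0.485, 0.139 and 11.9 FPKM and PS473@CPs tumors had 1.15, 40 and 8.41 FPKM. The framework groups had 26.8, 3.69 and 2.66 FPKM (NKMOF-101-[Mn]), 1.2, 1.89 and 5.79 FPKM (M5@NKMOF-101-[Mn]) and 0.754, 11.1 and 3.29 FPKM (PS473@NKMOF-101-[Mn]). All groups overlapped, and the tumor from PBS with the least Dcn lay below all but 1 of the treated tumors. The lowest value in a PBS tumor rested on an estimated 7 fragments.

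Lum, encoding lumican, a proteoglycan of the same family whose gene adjoins Dcn, had 0.854, 7.97 and 3.34 FPKM in PBS tumors and 0.863, 1.03 and 3.66 FPKM in Free PS473 tumors. PS473@CPs tumors had 1.11, 11.7 and 2.6 FPKM and NKMOF-101-[Mn] tumors had 5.94, 1.58 and 1.26 FPKM. The M5@NKMOF-101-[Mn] tumors, at 1.23, 1.71 and 1.61 FPKM, were the most alike, and PS473@NKMOF-101-[Mn] tumors had 0.999, 3.06 and 1.59 FPKM. The groups overlapped throughout. Although the genes are neighbours, the ratio of Dcn to Lum moved 34.9-fold, from 0.134 in Free PS473 2 to 4.69 in PBS 3, with Dcn spanning 288-fold and Lum 13.6-fold.

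Dpt, encoding dermatopontin, a matrix protein abundant in dermis, was at 0, 3.19 and 1.97 FPKM in PBS tumors. The 0 in PBS 1 allows up to 0.0875 FPKM at the depth of that tumor (3 fragments, counting error only), so PBS 2 was at least 36.4-fold higher. Free PS473 tumors had 0.247, 0.0683 and 4.71 FPKM, PS473@CPs tumors 0.782, 5.2 and 1.58 FPKM, and NKMOF-101-[Mn] tumors 4.67, 0.932 and 0.131 FPKM. M5@NKMOF-101-[Mn] tumors, at 0.136, 0.109 and 0.56 FPKM, stayed below 1 FPKM, and PS473@NKMOF-101-[Mn] tumors had 0.148, 1.71 and 1.44 FPKM. The former group lay below all 3 PS473@CPs tumors, a pair not among the comparisons tested, and the remaining groups overlapped. For that pair the share of separated genes over all genes tested was not counted.

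**Figure D1:**
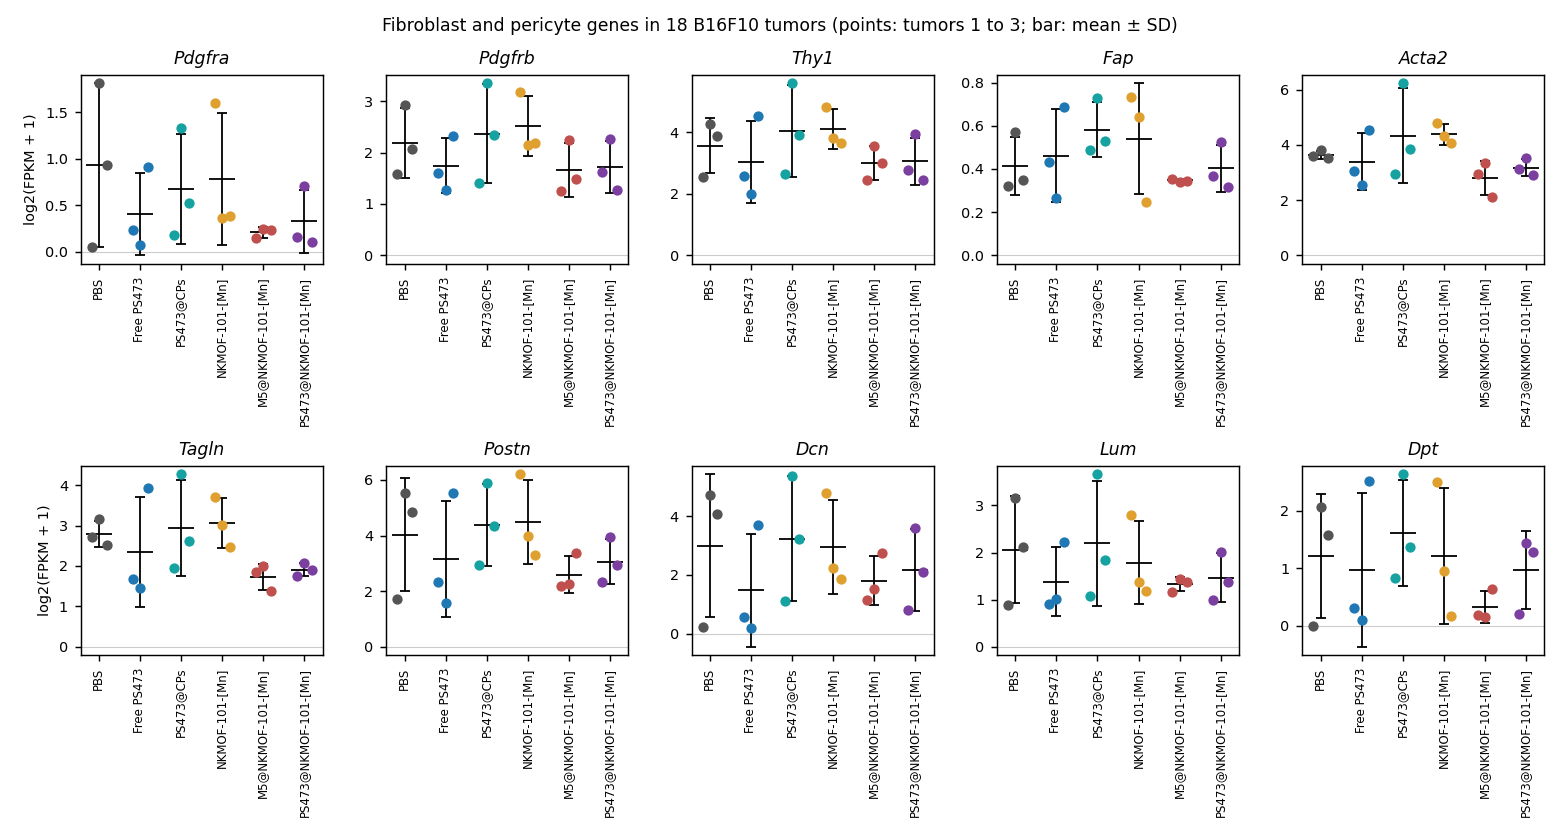
Level of each of the 10 genes as log2(FPKM + 1) in the 18 tumors, with the 6 groups along the horizontal axis, 1 point per tumor (tumors 1 to 3 from left to right), and the group mean with its SD as bars (n = 3). Acta2 is tight in PBS (10.5 to 12.9 FPKM) while Dcn covers 0.166 to 25.1 FPKM in the same 3 tumors.

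In the order of group means, M5@NKMOF-101-[Mn] was lowest for 10 of the 10 genes and PS473@NKMOF-101-[Mn] was next lowest for 8, with Free PS473 in that place for Dcn and Lum. PS473@CPs had the highest mean for 7, NKMOF-101-[Mn] for 2 (Pdgfrb and Postn) and PBS for 1 (Pdgfra). These orders are not independent of each other, since the genes rose and fell in the same tumors. Of the 50 pairs of neighbouring groups in these orders, 1 did not overlap: PBS above PS473@NKMOF-101-[Mn] for Acta2 (means of 11.5 and 8.19 FPKM). The gap was narrow, with the lowest PBS tumor at 10.5 FPKM and the highest PS473@NKMOF-101-[Mn] tumor at 10.4 FPKM. Between these 2 groups 4.66% of all genes tested did not overlap in either direction. All other neighbours in the order were not separated by their tumors.

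The same few tumors were high for nearly every gene. PS473@CPs 2, NKMOF-101-[Mn] 1 and Free PS473 3 were among the 5 highest tumors for all 10 genes, PBS 2 for 9 and PBS 3 for 5. At the other end, Free PS473 2 was among the 6 lowest tumors for all 10 genes, M5@NKMOF-101-[Mn] 1 for 9 and PBS 1 for 8. Thus the 5 highest came from 4 groups and Free PS473 supplied both a tumor at the top and one at the bottom. PS473@CPs 2 was the single highest tumor for 7 genes. PBS 1 was unusual in its make-up, being last of 18 for Pdgfra, Lum and Dpt but 8th for Acta2 and 6th for Tagln.

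**Figure D2:**
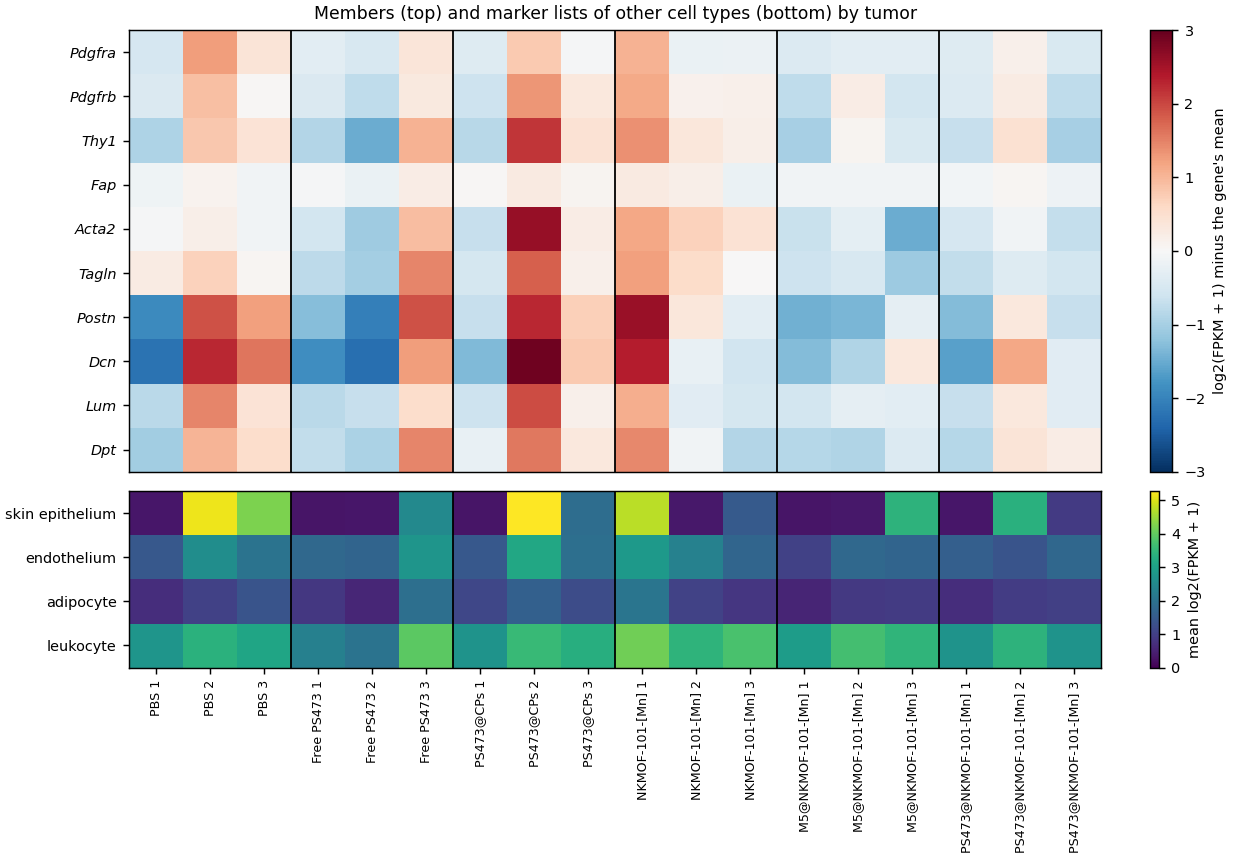
Top, log2(FPKM + 1) of each gene minus its mean over the 18 tumors (columns, with vertical lines between the 6 groups). Bottom, mean log2(FPKM + 1) of 4 marker lists of other cell types, in which the skin epithelium list is at 5.15 in PBS 2 and 5.28 in PS473@CPs 2, both high for the stromal genes, and at 0.329 in PBS 1.

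Markers of other tissues also differed between the tumors. The summed skin epithelium level was 11 to 19.4 FPKM in the 8 tumors on the low side, where 7 to 14 of the 22 genes were above 0 and Krt15, Krt77 and Flg were at 0 in each, and 44.4 to 5342 FPKM in the other 10, with 20 to 22 genes above 0. By group the sum ran from 19.4 to 4356 FPKM in PBS, 12.7 to 476 in Free PS473, 14.8 to 5342 in PS473@CPs, 14.9 to 1541 in NKMOF-101-[Mn], 11 to 577 in M5@NKMOF-101-[Mn] and 12.9 to 480 in PS473@NKMOF-101-[Mn], so the groups overlapped. All 12 endothelial genes were above 0 in every tumor, and their summed level was 22.2 to 41.8 FPKM in M5@NKMOF-101-[Mn] and 28.1 to 42.2 in PS473@NKMOF-101-[Mn]. It reached 78.2 in PBS, 97.6 in Free PS473, 130 in PS473@CPs and 97.3 in NKMOF-101-[Mn]. The adipocyte sum ran from 8.95 to 93.5 FPKM and was highest in Free PS473 3, and the skeletal muscle sum from 3.37 to 68.9 FPKM and was highest in PBS 3. The 11 leukocyte genes summed to 67.8 to 377 FPKM, and the 10 T cell genes, markers of another cell type that carries Thy1, to 1.93 to 16.6 FPKM. The part of these tissues in the levels of the 10 genes was not tested, and a relation across tumors was measured for the skin list only.

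Dcn was at 0.139 to 3.69 FPKM (median 0.954) in the 8 tumors with little skin signal and at 2.66 to 40 FPKM (median 11.5) in the other 10. Lum was at 0.854 to 1.71 FPKM (median 1.07) against 1.26 to 11.7 (median 3.2), and Postn at 1.99 to 14.6 FPKM (median 3.87) against 6.62 to 72.5 (median 23.5). Dpt was at 0 to 0.932 FPKM (median 0.142) against 0.131 to 5.2 (median 1.84), and Pdgfra at 0.0331 to 0.286 FPKM (median 0.124) against 0.0753 to 2.51 (median 0.758). The contractile genes were less separated: Acta2 was at 4.9 to 18.8 FPKM (median 7.58) against 3.37 to 74.5 (median 13.1), and its lowest value of all lay in a tumor with skin, M5@NKMOF-101-[Mn] 3. Tagln was at 1.74 to 7.09 FPKM (median 2.71) against 1.59 to 18.3 (median 4.97). Pdgfrb had 1.39 to 3.76 FPKM (median 2.03) against 1.41 to 9.23 (median 3.91), Thy1 2.94 to 13 FPKM (median 5.12) against 4.5 to 47.5 (median 14.1), and Fap 0.202 to 0.557 FPKM (median 0.284) against 0.187 to 0.662 (median 0.441). The ranges of all 10 genes overlapped between the 2 sets of tumors.

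Because the tumors fell into 2 clusters by skin signal, the relation to it was measured within each. Among the 10 tumors with skin, log2(FPKM + 1) of Dcn followed the skin score with r = 0.906 (adjusted permutation p = 0.0108) and rho = 0.891 (adjusted permutation p = 0.0238), and r was 0.821 without the 2 tumors farthest from the median score. Lum gave r = 0.842 (adjusted permutation p = 0.0213) and rho = 0.867 (adjusted permutation p = 0.0246), and r was 0.766 without those 2. Pdgfra gave r = 0.842 (adjusted permutation p = 0.0213) and rho = 0.83 (adjusted permutation p = 0.0309), and r was 0.76 without those 2. These 3 genes passed on both measures in this family of 20 relations. Acta2 (r = 0.436, raw permutation p = 0.214 and adjusted permutation p = 0.285) and Tagln (r = 0.489, raw permutation p = 0.151 and adjusted permutation p = 0.233) did not pass on either, and the remaining 5 genes, with r of 0.575 to 0.756, did not pass either. Among the 8 tumors with little skin signal, whose scores spanned only 0.301 to 0.341, none of the 10 genes passed on rho. In these, r of Acta2 was 0.813 and of Pdgfrb 0.827 (adjusted exact permutation p = 0.0409 and 0.0455), falling to 0.588 and 0.494 without the 2 farthest tumors.

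**Figure D3:**
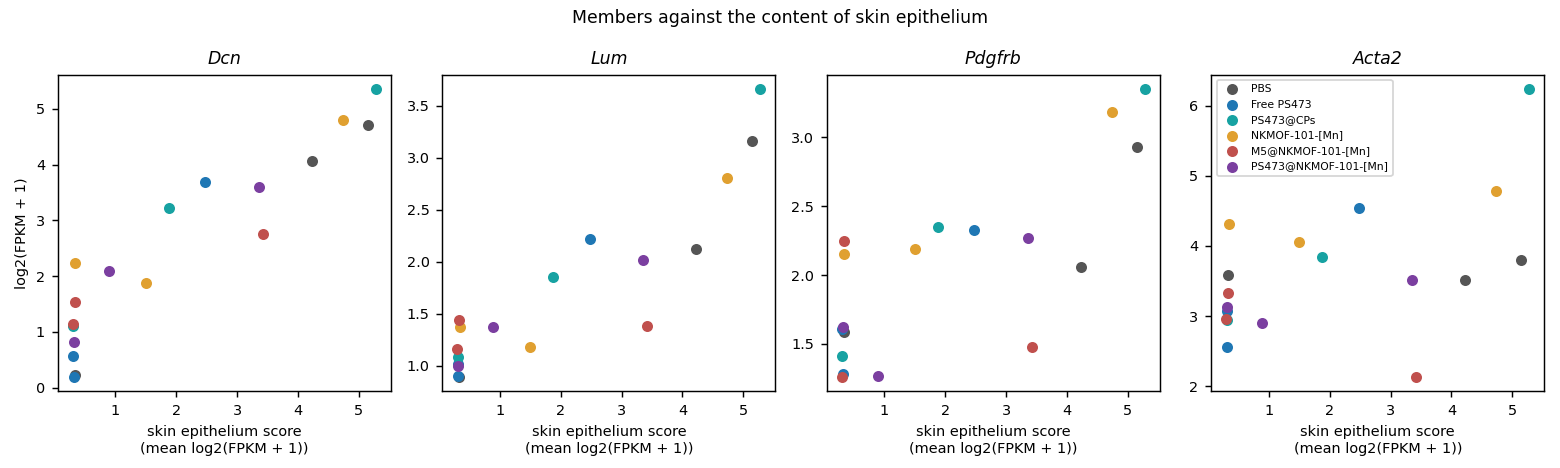
Level of Dcn, Lum, Pdgfrb and Acta2 as log2(FPKM + 1) against the mean log2(FPKM + 1) of 22 skin epithelium genes, 1 point per tumor colored by group. Among the 10 tumors with a score of 0.893 or more, Dcn climbs with the score (r = 0.906), whereas Acta2 is spread from 3.37 to 74.5 FPKM.

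The 10 genes rose and fell together. Over the 18 tumors all 45 pairs had a positive correlation, with Pearson's r of 0.658 to 0.957 (median 0.836) and Spearman's rho of 0.552 to 0.961. The largest Benjamini-Hochberg adjusted permutation p over the 45 pairs was 0.00331 for r and 0.0195 for rho, and the smallest raw p the permutations can give was 1e-05. Leaving out the 2 tumors farthest from the median left r at 0.539 to 0.942, and deviations from the group means gave 0.632 to 0.98. The points share a normalization to the total of each tumor.

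Matrix genes were the most alike and the contractile genes stood somewhat apart. The 6 pairs among Postn, Dcn, Lum and Dpt had r of 0.898 to 0.957 (median 0.927), the highest being Postn with Dcn (rho 0.938). Acta2 and Tagln had r = 0.932 and rho = 0.928. The 8 pairs of a contractile with a matrix gene had r of 0.658 to 0.821 (median 0.735), the lowest of the 45 being Acta2 with Dcn (rho 0.626, raw permutation p = 0.00182 for r). Pdgfrb followed Thy1 with r = 0.954, and the pair of receptors had r = 0.881. The difference between these blocks was not tested. Within the 10 tumors with skin, r was 0.612 to 0.96 for all pairs (median 0.853), 0.853 to 0.96 within the matrix genes and 0.663 to 0.89 between contractile and matrix genes. Within the 8 with little skin signal it was 0.272 to 0.978 (median 0.686), 0.371 to 0.93 within the matrix genes and 0.32 to 0.684 between contractile and matrix genes, while Acta2 with Tagln remained at 0.934. All 45 pairs were positive on both sides. In FPKM, the ratio of Acta2 to Dcn moved 129-fold, from 0.515 in PBS 2 to 66.5 in PBS 1.

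**Figure D4:**
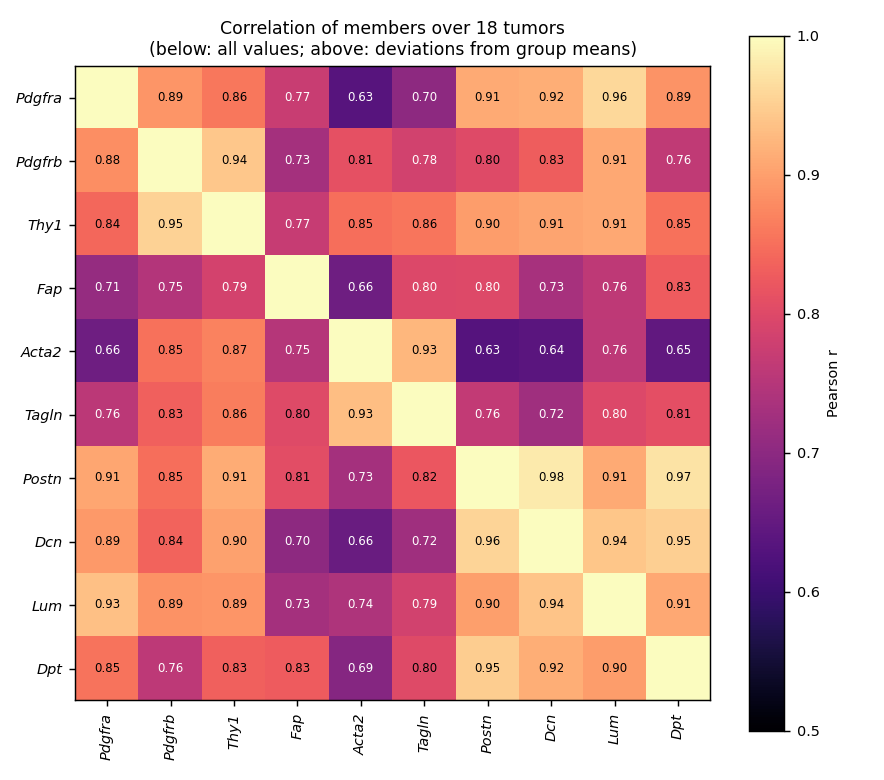
Pearson's r between the 10 genes over the 18 tumors, from log2(FPKM + 1) below the diagonal and from deviations from group means above it. The matrix genes form the block of highest values (0.898 to 0.957 below the diagonal), and contractile with matrix genes the lowest (from 0.658).

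The genes most like each member over the 18 tumors, among all genes tested, included many collagens and other matrix genes. For Pdgfra these were Col12a1 (r = 0.97) and Lrrc15 (r = 0.967), a fibril-associated collagen and a surface protein of activated fibroblasts, and for Pdgfrb the collagen VI chains Col6a1 (r = 0.971) and Col6a3 (r = 0.962). Thy1 was most like Icam1 (r = 0.965) and Col6a2 (r = 0.963), and Fap most like Trib2 (r = 0.92) and Nrep (r = 0.914). Acta2 was most like Tgfb1i1, a focal adhesion protein (r = 0.936) and Myl9, a myosin light chain (r = 0.936), and Tagln most like Acta2 itself (r = 0.932) and Tgfb1i1 (r = 0.924). Postn was followed by Fbln2 (r = 0.972) and Col3a1 (r = 0.971), Dcn by Rnase4 (r = 0.97) and Cpxm1 (r = 0.96), Lum by Cpxm1 (r = 0.972) and the matrix metalloproteinase Mmp2 (r = 0.965), and Dpt by the microfibril protein Mfap4 (r = 0.962) and Gpx3 (r = 0.952). Likeness is given here as a description over 18 tumors.

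Whether treatment changed these genes was asked in 9 comparisons, PS473@NKMOF-101-[Mn] against each other group and each of the other treatments against PBS. They share tumors: 5 of the 9 share the PS473@NKMOF-101-[Mn] tumors and 5 the PBS tumors. None of the 8 genes tested passed an adjusted p of 0.05 in any of them (limma with Benjamini-Hochberg adjustment over 12357 genes), none had an unadjusted p under 0.05, and the adjusted threshold was passed by 0% of all genes tested in each comparison. The test for any difference among the 6 groups gave an unadjusted p of 0.156 for Acta2, 0.196 for Tagln, 0.378 for Pdgfrb, 0.485 for Thy1, 0.476 for Postn, 0.646 for Dpt, 0.682 for Lum and 0.711 for Dcn (limma, adjusted p = 1 for each), with 1.99% of all genes tested at an unadjusted p under 0.05 and 0% at the adjusted threshold. With 3 tumors against 3, an exact permutation test of a single gene cannot go below a two-sided p of 0.1. Fold changes below are differences of mean log2(FPKM + 1), which understate changes of weakly expressed genes, and the standard error (SE) was the same in every comparison: 0.49 for Pdgfrb, 0.60 for Tagln, 0.65 for Acta2, 0.66 for Lum, 0.73 for Dpt, 0.75 for Thy1, 1.14 for Postn and 1.33 for Dcn.

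PS473@NKMOF-101-[Mn] tumors had lower mean values than PBS tumors for all 8 genes, with a median log2 fold change of -0.56 against -0.014 over all genes tested. That median was -0.13 without PBS 2, -0.98 without PBS 1 and -0.91 without PS473@NKMOF-101-[Mn] 2. The values ran from -0.24 for Dpt (SE 0.73) to -0.97 for Postn (SE 1.14, limma adjusted p = 0.993 for both). Acta2 (log2 fold change -0.46, 95% interval -1.85 to 0.93) and Tagln (-0.89, interval -2.18 to 0.40, unadjusted p = 0.161 by limma) were lower in every tumor than in every PBS tumor, which was true in either direction of 4.66% of all genes tested. An unadjusted p under 0.05 occurred in 2.1% of them.

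Against the empty framework, PS473@NKMOF-101-[Mn] tumors again had lower means for all 8 genes (median -0.92, all genes tested -0.038), from -0.24 for Dpt (SE 0.73) to -1.43 for Postn (SE 1.14, limma adjusted p = 0.999 for both). Without NKMOF-101-[Mn] 1 the median was -0.51. Acta2 (-1.21, interval -2.60 to 0.18) and Tagln (-1.15, interval -2.44 to 0.14, unadjusted p = 0.0765 by limma) were once more the 2 genes whose tumors did not overlap, against 7.91% of all genes tested. The share of genes at an unadjusted p under 0.05 was 2.3%.

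Against the inactive ribozyme in the same framework, PS473@NKMOF-101-[Mn] tumors had higher means for all 8 genes, but by little (median 0.27, all genes tested -0.008). The median turned to -0.05 without PS473@NKMOF-101-[Mn] 2 and was 0.14 and 0.10 without M5@NKMOF-101-[Mn] 1 and 3. Values ran from 0.04 for Thy1 (SE 0.75) to 0.65 for Dpt (SE 0.73, limma adjusted p = 1 for both), and no gene's tumors were separated, against 4.48% of all genes tested. The intervals reached from -1.02 to 1.76 for Acta2, -1.11 to 1.46 for Tagln and -2.49 to 3.21 for Dcn, so equal levels were not shown either. An unadjusted p under 0.05 was found in 0.591% of all genes.

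Against Free PS473 the 8 genes were divided, with 3 above and 5 below 0 (median -0.01, all genes tested -0.042), from -0.44 for Tagln (SE 0.60, limma adjusted p = 0.964) to 0.69 for Dcn (SE 1.33, limma adjusted p = 0.98). Leaving out Free PS473 3, the high tumor of that group, moved Tagln to 0.35, Dcn to 1.79 and the median to 0.64, while without Free PS473 2 the median was -0.47; leaving out any of the 6 tumors moved this median, which is near 0, by more than its own size. None was separated, against 6.82% of all genes tested, and 4.98% of all genes had an unadjusted p under 0.05. Against PS473@CPs all 8 were lower (median -1.01, all genes tested 0.001), from -0.64 for Dpt (SE 0.73) to -1.33 for Postn (SE 1.14, limma adjusted p = 0.996 for both). Without PS473@CPs 2, the high tumor of that group, the median was -0.19, and without PS473@CPs 1 it was -1.62. The smallest unadjusted p was 0.0951, for Acta2 (limma, -1.16, interval -2.55 to 0.23). No gene was separated, with 4.12% separated and 2.29% at an unadjusted p under 0.05 over all genes tested.

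The other treatments were set against PBS. In Free PS473 tumors all 8 genes had lower means (median -0.50, all genes tested 0.028), from -0.24 for Dpt (SE 0.73) to -1.51 for Dcn (SE 1.33, limma adjusted p = 1 for both). The median was -0.05 without Free PS473 2, -1.17 without Free PS473 3, -0.15 without PBS 2 and -0.95 without PBS 1. No gene was separated, against 4.91% of all genes tested, with 1.81% at an unadjusted p under 0.05. In PS473@CPs tumors all 8 had higher means (median 0.30, all genes tested -0.008), from 0.14 for Lum (SE 0.66) to 0.70 for Acta2 (SE 0.65, limma adjusted p = 1 for both). Without PS473@CPs 2 these 2 values turned to -0.60 and -0.25 and the median to -0.35. The median was -0.16 without PBS 1, 0.81 and 0.61 without PBS 2 and 3, and 0.94 without PS473@CPs 1. No gene was separated, against 5.11%, and 2.09% of all genes had an unadjusted p under 0.05.

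With the empty framework, 5 genes had higher and 3 lower means than in PBS (median 0.29, all genes tested 0.026), from -0.28 for Lum (SE 0.66) to 0.75 for Acta2 (SE 0.65, interval -0.64 to 2.14, limma adjusted p = 1 for both). The median turned to -0.30 without PBS 1 and to -0.23 without NKMOF-101-[Mn] 1, and was 0.76 without PBS 2 and 0.54 without NKMOF-101-[Mn] 3. Acta2 was higher in each of the 3 tumors than in every PBS tumor, as were or were the reverse 6.02% of all genes tested, and 1.46% had an unadjusted p under 0.05. With the inactive ribozyme in the framework, all 8 genes had lower means than in PBS (median -0.86, all genes tested -0.007), from -0.53 for Pdgfrb (SE 0.49) to -1.44 for Postn (SE 1.14, limma adjusted p = 0.999 for both). The median was -0.40 without PBS 2. Acta2 (-0.83, interval -2.22 to 0.56) and Tagln (-1.07, interval -2.36 to 0.22, unadjusted p = 0.0982 by limma) were lower in every tumor than in PBS, against 8.11% of all genes tested, and 1.51% had an unadjusted p under 0.05. Among the 8 genes, only Acta2 and Tagln had separated tumors in any of the 9 comparisons. Of all genes tested, 4.12% to 8.11% were separated in each comparison. Acta2 and Tagln varied together (r = 0.932) and the comparisons share tumors, so these separations are not independent of each other.

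Pdgfra and Fap entered a test only when the filter was lowered to a mean of 0.1 FPKM. Pdgfra then differed from PBS by -0.61 in PS473@NKMOF-101-[Mn] (SE 0.43, unadjusted p = 0.178, adjusted p = 0.993 by limma) and by -0.73 in M5@NKMOF-101-[Mn] (SE 0.43, unadjusted p = 0.112, adjusted p = 1 by limma). For Fap the differences from PBS were -0.01 and -0.07 (SE 0.13, limma adjusted p = 0.997 and 1). Neither gene passed in any of the 9 comparisons.

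**Figure D5:**
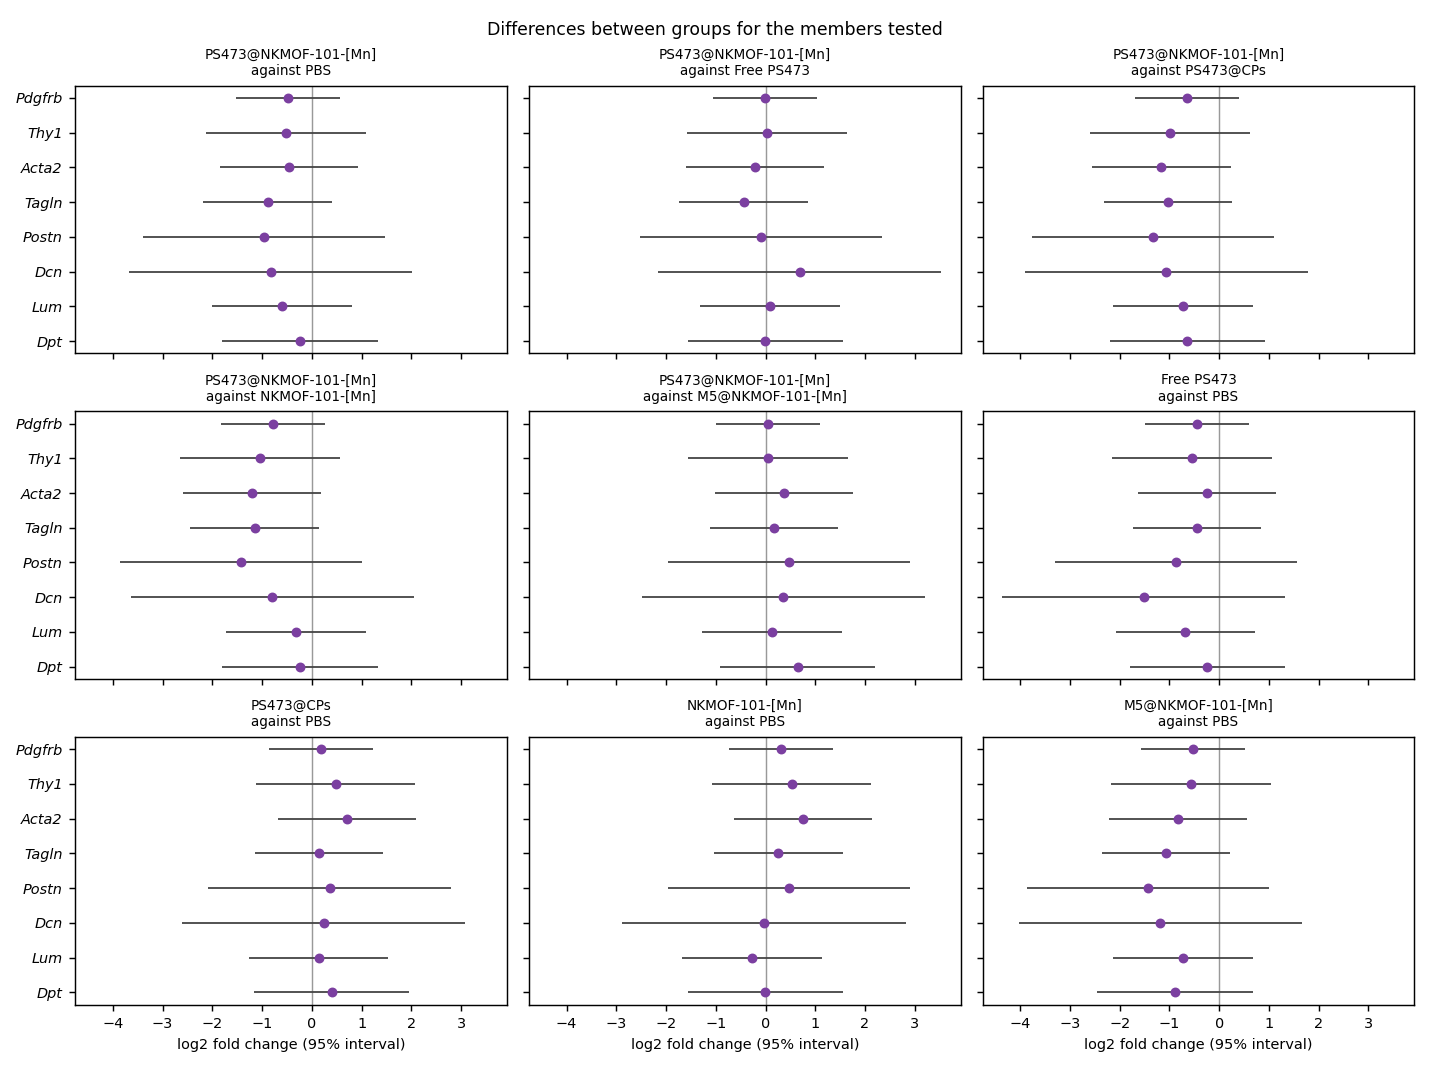
Log2 fold change with its 95% interval for the 8 genes tested, 1 panel for each of the 9 comparisons, from limma on log2(FPKM + 1) of all 18 tumors. All 72 intervals cross 0, and those of Dcn and Postn are the widest, for example -3.67 to 2.02 for Dcn against PBS in PS473@NKMOF-101-[Mn].

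With the skin score as a covariate, the SE of the matrix genes fell most, from 1.33 to between 0.47 and 0.50 for Dcn, from 1.14 to between 0.52 and 0.55 for Postn and from 0.66 to between 0.29 and 0.32 for Lum. For Acta2 it went from 0.65 to between 0.56 and 0.60 and for Tagln from 0.60 to between 0.50 and 0.54. No gene passed the adjusted threshold in that fit either, and Postn and Dpt in PS473@NKMOF-101-[Mn] against PBS were then at 0.17 and 0.45, above 0. With the empty framework against PBS, Postn went from 0.46 to 1.16 (SE 0.53, unadjusted p = 0.0453 by limma). In that comparison 411 of 12357 genes had an unadjusted p under 0.05 with the covariate, and 181 without it. The median of the 8 genes turned from -0.56 to 0.12 in PS473@NKMOF-101-[Mn] against PBS and from -0.50 to 0.27 in Free PS473 against PBS. It rose from 0.30 to 0.74 in PS473@CPs against PBS and from 0.29 to 0.70 with the empty framework against PBS. With the inactive ribozyme in the framework it went from -0.86 to -0.10 against PBS. For PS473@NKMOF-101-[Mn] it went from -1.01 to -0.51 against PS473@CPs and from -0.92 to -0.70 against the empty framework. It went from 0.27 to 0.18 against the inactive ribozyme and from -0.01 to -0.18 against Free PS473.

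Related genes were read from 8 lists chosen by function, and none of their genes passed the adjusted threshold in any of the 9 comparisons (limma). Of the PDGF ligands 2 of 4 were tested, and against PBS in PS473@NKMOF-101-[Mn] Pdgfa was at -0.06 (SE 0.17) and Pdgfb, the ligand that endothelium uses to recruit pericytes, at -0.45 (SE 0.39). In TGF-beta signaling, the pathway known for driving the myofibroblast state, 15 of 19 genes were tested and 10 lay below 0 (median -0.09), with Acvrl1, a receptor of the family, highest at 0.21 (SE 0.20). All 7 pericyte genes tested lay below 0 (median -0.48), from Cspg4 at -0.11 (SE 0.28) to Ndufa4l2 at -1.65 (SE 0.87).

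Of the other contractile genes 9 of 12 lay below 0 in that comparison, but with a median of only -0.05, from Mylk at 0.32 (SE 0.21) to Tpm2 at -1.11 (SE 0.65). All 9 fibroblast collagens tested lay below 0 (median -0.89), from Col6a1 at -0.34 (SE 0.62) to Col12a1 at -1.79 (SE 0.95). Matrix glycoproteins and crosslinkers lay below 0 for 12 of 14 (median -0.52), from Fbln1 at 0.08 (SE 0.15) to Tnc, encoding tenascin C, at -1.83 (SE 1.29). The 3 other small leucine-rich proteoglycans tested ran from Prelp at -0.39 (SE 0.45) to Bgn at -0.77 (SE 0.83), and the 8 fibroblast identity genes from Col15a1 at -0.11 (SE 0.34) to Lrrc15 at -1.08 (SE 0.73). The adjusted p of each gene named from this comparison was 0.993 (limma), and the median of all genes tested was -0.014. All 10 endothelial genes tested lay below 0 as well (median -0.47), as did 17 of 19 skin epithelium genes (median -2.11), while 8 of 9 melanocyte genes lay above 0 (median 0.20).

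Against the inactive ribozyme in the same framework, by contrast, the 9 collagens all lay above 0 by a small amount (median 0.22, from Col6a3 at 0.02, SE 0.68, to Col1a2 at 0.62, SE 0.96). The pericyte list had a median of -0.07 and the contractile list one of -0.01 there, against -0.008 over all genes tested.

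The pericyte list was also below 0 for 7 of 7 genes against the empty framework (median -0.72) and against PS473@CPs (median -0.62), and for 5 of 7 against Free PS473 (median -0.23). Against the empty framework an unadjusted p under 0.05 occurred in 2.3% of all genes tested. It occurred in 5 of the 70 genes tested in the 8 lists, none of them past the adjusted threshold. They were Rgs5, a G protein regulator marking pericytes, at -0.96 (SE 0.44), Mcam, an adhesion protein of vascular wall cells that melanoma cells can also carry, at -0.72 (SE 0.27), Ccn2, a matricellular TGF-beta target, at -1.51 (SE 0.61), Cd248, a stromal surface protein, at -1.01 (SE 0.41), and Col15a1 at -0.82 (SE 0.34, limma adjusted p = 0.999 for all 5). Mcam was at -0.67 (SE 0.27, limma adjusted p = 0.996) against PS473@CPs and at -0.88 (SE 0.27, limma adjusted p = 0.781) against Free PS473, each time 1 of 2 list genes at an unadjusted p under 0.05. The other was a transcription factor of TGF-beta signaling on the opposite side, Smad4 at 0.19 (SE 0.09, limma adjusted p = 0.996) against PS473@CPs and Smad3 at 0.36 (SE 0.14, limma adjusted p = 0.942) against Free PS473. In each of these 2 comparisons 2 of the 70 list genes had an unadjusted p under 0.05. The share over all genes tested was 2.29% against PS473@CPs and 4.98% against Free PS473. In PS473@NKMOF-101-[Mn] against PBS and against the inactive ribozyme no list gene reached that level. In M5@NKMOF-101-[Mn] against PBS 2 of 70 did, with 1.51% of all genes tested. They were Mfap2, a matrix list gene, at -0.72 (SE 0.29) and Smad3 at 0.30 (SE 0.14, limma adjusted p = 0.999 for both).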

How the data were processed

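Poly(A) RNA of 18 tumors was sequenced, 3 in each of 6 groups, and groups were taken from the sample titles. The authors deposited FPKM values for 41079 genes with 1 length per gene, normalized to gene length and to the fragments assigned in each tumor, and all 18 tumor columns were used. The submitters' processing notes name build GRCm39. The aligner, the counting tool and the annotation were not given in the sources used here. Values moved in steps that gave 17212000 to 28401000 assigned fragments per tumor, but only 61.8% to 68.8% of low values were whole fragments within 0.01, so no count model was used.

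Tests were run on log2(FPKM + 1). A filter at a mean of 1 FPKM kept 12357 genes, and limma 3.58.1 in R 4.3.3 was fitted to them (1 mean per group, 18 tumors, trend in the prior variance). Each comparison was adjusted by the Benjamini-Hochberg method over all genes tested, with a threshold of 0.05, and the fit was tested on simulated data. Correlations used 100000 permutations, or all of them for 8 tumors, in numpy 2.4.6 and scipy 1.17.1. Tables and figures were made with pandas 2.3.3 and matplotlib 3.10.9 under Python 3.11.15. Marker lists were scored per tumor by averaging log2(FPKM + 1) over all listed genes.

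The text names all 10 members, the members with the highest and lowest fold change in each comparison, the genes with the highest and lowest fold change of each related list against PBS in PS473@NKMOF-101-[Mn], and the 2 genes most like each member, except that 1 gene this rule names is not reported here. Members outside these ends, Krt14, Krt15, Krt77, Flg, Col6a3, Col1a2, Rgs5, Mcam, Ccn2, Cd248, Mfap2, Smad3 and Smad4 were added once their values had been seen. The members and lists were chosen with earlier results of these data known. Gene positions came from GENCODE M21 on GRCm38 and promoters from RefSeq on GRCm38.p6, joined by gene symbol, and no coordinate was used with the FPKM values. Alternatives were a pseudocount of 0.1 FPKM, no filter, a filter at 0.1 FPKM, quantile normalization, upper-quartile scaling, the compared groups alone, no trend, a replicate block, the skin score as a covariate, and leaving out each tumor.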

Additional observations from a re-analysis of the deposited data

How the results depend on the processing

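No member passed an adjusted p of 0.05 in limma under any of the 89 results of other settings or the 180 that leave out 1 tumor each, and the smallest adjusted p of a member among them was 0.661 (Acta2, PS473@NKMOF-101-[Mn] against PS473@CPs, without PS473@CPs 3). Over all genes, 0 passed in the reported fits and 0 to 4 of 31286 without a filter. In PS473@CPs against PBS, 1 of 12357 genes passed with the compared groups alone and again without PS473@CPs 3. Unadjusted p values under 0.05 were reached by up to 2 members in other settings and by up to 4 when 1 tumor was left out (without PS473@CPs 1, against that group). Over all genes, 433 of 12357 reached that level in the latter fit. In a comparison under the other settings, 68 of 12357 to 1531 of 31286 genes did. The median fold change of the 8 members kept its sign under all 27 alternatives in 3 of the 9 comparisons (M5@NKMOF-101-[Mn] against PBS, down to -0.10 with the skin score as a covariate, and PS473@NKMOF-101-[Mn] against PS473@CPs and against the empty framework). With that covariate it turned to 0.12 in PS473@NKMOF-101-[Mn] against PBS and to 0.27 in Free PS473 against PBS. It turned to -0.05 against M5@NKMOF-101-[Mn] without PS473@NKMOF-101-[Mn] 2, and leaving out 1 tumor gave -0.35 to 0.94 in PS473@CPs against PBS, -0.30 to 0.76 in NKMOF-101-[Mn] against PBS and -0.47 to 0.64 in PS473@NKMOF-101-[Mn] against Free PS473.

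Replicate numbers did not pair the tumors: 18 of 45 same-numbered pairs had deviations correlated above 0.1 (r from -0.73 to 0.724) and 6 of 18 tumors correlated best with their own number. With the replicate block, 0 members passed, and 224 genes in place of 260 had an unadjusted p under 0.05 in PS473@NKMOF-101-[Mn] against PBS.

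Some fold changes of single members turned direction. In PS473@NKMOF-101-[Mn] against PBS, Dpt was at 0.006 with a pseudocount of 0.1 FPKM. With the skin score as a covariate, Dpt was at 0.45 and Postn at 0.17 in that comparison, Dpt at 0.033 against NKMOF-101-[Mn], Thy1 at -0.024 against M5@NKMOF-101-[Mn], Dpt at 0.65 and Dcn at 0.29 in Free PS473 against PBS, and Lum at 0.12 in NKMOF-101-[Mn] against PBS. Leaving out 1 tumor at a time, the PS473@NKMOF-101-[Mn] comparisons moved between -0.845 and 0.188 for Dpt against PBS, -0.028 and 1.79 for Dcn and -0.89 and 0.35 for Tagln against Free PS473, -0.753 and 0.409 for Dpt against NKMOF-101-[Mn], and -0.40 and 0.34 for Thy1 against M5@NKMOF-101-[Mn]. Against PBS, the range was -1.01 to 0.20 for Dpt in Free PS473, -0.25 to 1.40 for Acta2 and -0.60 to 0.70 for Lum in PS473@CPs, and -0.86 to 0.28 for Lum in NKMOF-101-[Mn]. The cause of these turns was not tested.

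With 3 tumors per group and intervals up to several log2 units wide for Dcn and Postn, differences smaller than these intervals were not detectable. Pdgfra and Fap rest on few fragments and were tested only with the lower filter.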
